A study of Homo sapiens with 6 samples.

Results

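The 10 genes described here encode transcription factors and a coactivator that set and keep B cell identity: BCL6, MEF2B, MEF2C, PAX5, EBF1, SPIB, POU2AF1, IRF4, IRF8 and PRDM1. They were taken by symbol from the 29489 genes of the table, and all 10 were found. Poly(A) RNA was sequenced from SU-DHL-4, a human cell line established from diffuse large B-cell lymphoma, a cancer of mature B cells. There were 6 samples, 3 labelled KD and 3 labelled CON. The labels give the line and the group only, with no agent, time or target for KD. The series is about ZHX2, a zinc finger and homeobox protein. The sources used here do not say whether KD was 1 clone or a pool of cells.

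Values were FPKM, fragments scaled to transcript length and library total, so that levels can be set side by side between genes. The replicate 1 columns were rescaled averages of replicates 2 and 3 of their group, with a divisor of 1.2 in KD (29489 of 29489 genes) and 1.1 in CON (29488 genes; relative tolerance 1e-09). All comparisons therefore used replicates 2 and 3, 4 libraries in all (n = 2 per group). FPKM summed to 272992 and 273768 in KD and to 267854 and 267622 in CON, and 11400 to 11651 genes reached 1 FPKM in a library. The labels do not say whether the samples were separate cultures. The p-values therefore reflect the spread between these libraries alone, and that spread may be technical. ZHX2 stood at 11.0 and 11.0 FPKM in KD, against 38.5 and 36.7 FPKM in CON. ZHX2 was also the gene in which CON replicate 1 departed from that average, so the labels were not checked by it. All 9 B cell markers examined were above 1 FPKM in every library. Their summed level was 1027 and 1045 FPKM in KD and 1317 and 1331 FPKM in CON. The T cell marker CD3E was at most 0.179 FPKM, and the 6 myeloid markers summed to at most 0.678 FPKM in KD and 0.125 FPKM in CON. LCK, a kinase listed as a T cell marker, was at 39.8 and 38.6 FPKM in KD and 53.4 and 53.6 FPKM in CON. NKG7 was at 0.896 and 0.728 FPKM in KD and 1.26 and 1.63 FPKM in CON. It reached 1 FPKM, the level asked of tested genes, in CON alone, so it could only be lower. Its limma adjusted p was 0.0352, but 0.137 with no filter on low values and 0.0692 under quantile normalization. PRF1 was higher, at 2.98 and 2.84 FPKM in KD against 2.05 and 1.81 FPKM in CON. The T and NK list summed to 43.8 and 42.4 FPKM in KD and 56.8 and 57.2 FPKM in CON, and the 4 measured epithelial and fibroblast markers to 7.68 and 7.17 FPKM in KD and 6.42 and 6.60 FPKM in CON. In the second list DCN was lower in KD, and LUM and TAGLN were higher. The part of these marker differences in the results below was not tested.

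B cells of the germinal centre divide and mutate their immunoglobulin genes, and a small set of transcription factors holds them in that state. EBF1 and PAX5 commit cells to the B lineage and keep them there, while BCL6, a repressor, keeps the germinal centre programme by silencing genes of activation and of plasma cell differentiation. MEF2B and MEF2C, MADS-box factors, and IRF8 act with BCL6 in germinal centre B cells. POU2AF1 is the coactivator that binds OCT factors on the octamer motif, and SPIB is an ETS factor close to PU.1. IRF4 and PRDM1, which encodes BLIMP1, drive the exit to the plasma cell, in which PRDM1 shuts off PAX5 and BCL6. Diffuse large B-cell lymphomas are divided by such genes into a germinal centre class, to which SU-DHL-4 is assigned, and an activated B cell class with high IRF4.

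The 300 bases around a transcription start are shown for MEF2B and BCL6, the members with the highest levels, because they hold letters that partners of these factors recognise. They run from 250 bases before to 50 bases after the start, are credited to RefSeq (GRCh38.p14), and are written 5′ to 3′ on the strand of the gene. The MEF2B window lies at chr19:19170214-19170513 on the minus strand, and its capitals mark an octamer. The BCL6 window lies at chr3:187745419-187745718 on the minus strand, and its capitals mark 2 sites of the type that BCL6 itself binds. The second of these is run together with a pair of heat shock half-sites.
MEF2B: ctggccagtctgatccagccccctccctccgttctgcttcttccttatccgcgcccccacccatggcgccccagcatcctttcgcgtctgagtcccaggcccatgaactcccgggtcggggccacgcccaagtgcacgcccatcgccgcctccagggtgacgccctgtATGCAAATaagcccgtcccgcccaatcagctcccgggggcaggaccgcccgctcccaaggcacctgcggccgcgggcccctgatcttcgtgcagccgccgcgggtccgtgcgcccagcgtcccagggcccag
BCL6: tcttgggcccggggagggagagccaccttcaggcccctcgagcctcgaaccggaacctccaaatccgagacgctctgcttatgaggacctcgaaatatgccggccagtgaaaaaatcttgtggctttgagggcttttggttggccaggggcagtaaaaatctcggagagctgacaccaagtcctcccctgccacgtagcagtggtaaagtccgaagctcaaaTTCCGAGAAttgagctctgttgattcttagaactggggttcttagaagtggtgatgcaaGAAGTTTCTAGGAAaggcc
In the MEF2B window the octamer (ATTTGCAT or its reverse complement ATGCAAAT) occupied positions -82 to -75, counted from the start as position 1. In the BCL6 window TTCCGAGAA stood at -28 to -20 and TTCTAGGAA at 37 to 45, while GAAGTTTC, at 32 to 39, shared bases with TTCTAGGAA. Searched on both strands in 34943 RefSeq promoter windows of the same length, the octamer occurred in 1.77%, the BCL6-type site (TTCCNNGAA) in 4.45% and the heat shock pair (GAANNTTC) in 6.79%. A match of letters is a description and shows no binding.

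MEF2B, which activates genes of the germinal centre programme and is itself mutated in lymphomas of this origin, was the member with the highest level and the largest change. MEF2B (ENSG00000213999, GRCh38 chr19:19145568-19170289, minus strand) stood at 137 and 133 FPKM in KD, against 273 and 273 FPKM in CON. Both KD libraries lay far below both CON libraries. The means were 135 ± 2.96 FPKM in KD and 273 ± 0.0437 FPKM in CON (SD, n = 2 each), so that KD held 49.4% of the CON level. On the log2(FPKM + 1) scale MEF2B changed by -1.01 (SE 0.0239, limma adjusted p = 3.58e-05 over 11916 tested genes). A call at an adjusted p under 0.05 was frequent here, with 58.6% of tested genes called, 27.6% higher and 31.1% lower. Genes called with a log2 change of -1 or below made up 2.25%. MEF2B lay at that cut. It was outside the cut under median-ratio scaling (log2 change -0.98), under quantile normalization (log2 change -0.93) and without KD replicate 3 (log2 change -0.99). By size of change in either direction MEF2B ranked 617 among the 11916 tested genes. Among 1233 rows of the table that carry a transcription factor family, MEF2B ranked 9 in KD and 4 in CON by mean FPKM. In bulk RNA, fewer cells that express a gene and less of its RNA per cell cannot be told apart.

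The MEF2B gene shares sequence with BORCS8-MEF2B, a readthrough transcript that starts in the neighbouring BORCS8 gene, so that reads could be split between them. The readthrough gene stood at 5.45 and 9.07 FPKM in KD and at 9.14 and 10.8 FPKM in CON (log2 change -0.44, SE 0.222, limma adjusted p = 0.148). It was called lower without KD replicate 3 (log2 change -0.76, adjusted p = 0.0118) and changed by -0.12 without KD replicate 2 (adjusted p = 0.412). It made up 3.24% to 6.39% of the sum of the pair in the 4 libraries. That sum was 142 and 142 FPKM in KD and 282 and 284 FPKM in CON, a ratio of 0.503, so the difference in MEF2B was as large with the readthrough gene added.

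MEF2C, the related factor that transmits B cell receptor signals, stood at 11.3 and 11.7 FPKM in KD and at 10.3 and 10.1 FPKM in CON. The groups did not overlap, as was true of 81.6% of tested genes. The means of MEF2C (ENSG00000081189, chr5:88717117-88904257, minus strand) were 11.5 ± 0.264 FPKM in KD and 10.2 ± 0.143 FPKM in CON (SD, n = 2 each), a log2 change of 0.17 (SE 0.0433, limma adjusted p = 0.0256). This call was lost without KD replicate 3 (adjusted p = 0.0897), without CON replicate 2 (adjusted p = 0.0882) and without CON replicate 3 (adjusted p = 0.123). MEF2B was 12.1 and 11.3 times MEF2C by FPKM in the KD libraries and 26.6 and 27.1 times MEF2C in the CON libraries. The log2 ratio of MEF2B + 1 to MEF2C + 1 was 1.18 lower in KD, as given by a KD minus CON difference of -1.18 (exact permutation test, two-sided, p = 0.333, the smallest that 2 against 2 libraries allow).

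BCL6 was higher in KD. It stood at 69.6 and 68.4 FPKM in KD and at 59.2 and 58.8 FPKM in CON, with no overlap between groups. The means of BCL6 (ENSG00000113916, chr3:187721377-187745727, minus strand) were 69.0 ± 0.836 FPKM in KD and 59.0 ± 0.242 FPKM in CON (SD, n = 2 each), a 1.17-fold higher level. The log2 change was 0.22 (SE 0.0255, limma adjusted p = 0.00211). BCL6 ranked 16 in KD and 21 in CON among rows with a transcription factor family. MEF2B was 1.96 times BCL6 by mean FPKM in KD and 4.63 times in CON.

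**Figure D1:**
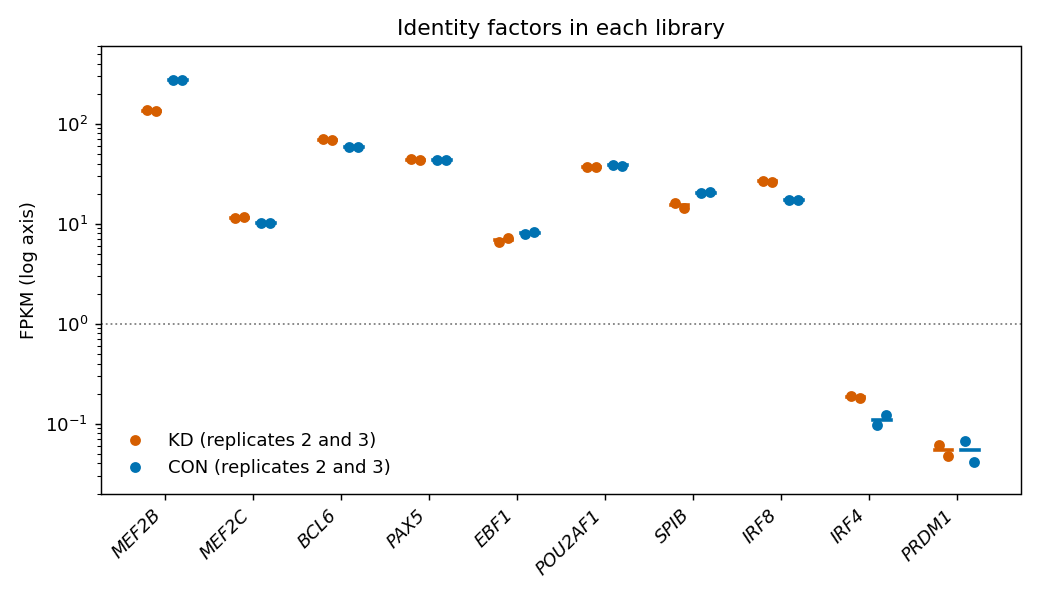
FPKM of the 10 identity factors (log axis) in KD and CON replicates 2 and 3, with a point per library, a short bar at the mean of each group and a dotted line at 1 FPKM. MEF2B sits at 133 to 137 in KD and 273 in CON, while IRF4 and PRDM1 lie below 1 in all 4 libraries.

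PAX5 and POU2AF1 differed little. PAX5, which activates B cell genes and silences those of other lineages, stood at 44.5 and 43.3 FPKM in KD and at 43.1 and 43.2 FPKM in CON. All 4 PAX5 values (ENSG00000196092, chr9:36833275-37034185, minus strand) lay close together, and the log2 change was 0.02 (SE 0.0291, 95% interval -0.05 to 0.10, limma adjusted p = 0.504). POU2AF1 (ENSG00000110777, chr11:111352252-111455630, minus strand) stood at 37.2 and 36.5 FPKM in KD and at 38.6 and 38.0 FPKM in CON. Its KD values were slightly the lower ones, with a log2 change of -0.05 (SE 0.0300, 95% interval -0.13 to 0.03, limma adjusted p = 0.191). For PAX5 and POU2AF1, changes within these intervals could not be told from none with 2 libraries per group.

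EBF1, which opens chromatin at B lineage genes, stood at 6.51 and 7.28 FPKM in KD and at 7.86 and 8.21 FPKM in CON. Both KD values were the lower ones. The log2 change of EBF1 (ENSG00000164330, chr5:158695916-159099761, minus strand) was -0.20 (SE 0.0665, 95% interval -0.37 to -0.02, limma adjusted p = 0.0555), which missed the threshold over all genes. It passed without KD replicate 3, at a log2 change of -0.27 (adjusted p = 0.0348), and was -0.13 without KD replicate 2 (adjusted p = 0.167). Without CON replicate 2 and without CON replicate 3 the adjusted p was 0.121 and 0.209. The window of EBF1 held an ETS-IRF composite element (present in 2.82% of windows), the joint site of SPIB or PU.1 with IRF4 or IRF8. It is shown because factors of both kinds are among the members, with 15 bases on either side, at chr5:159097965-159098004 on the minus strand.
EBF1: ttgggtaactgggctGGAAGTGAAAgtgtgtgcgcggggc

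SPIB, the ETS factor, fell. It stood at 16.2 and 14.5 FPKM in KD and at 20.1 and 20.8 FPKM in CON, and both KD libraries lay below both CON libraries. SPIB (ENSG00000269404, chr19:50418938-50431313, plus strand) averaged 15.4 ± 1.20 FPKM in KD and 20.5 ± 0.512 FPKM in CON (SD, n = 2 each), 75.0% of the CON level. The log2 change was -0.39 (SE 0.0610, limma adjusted p = 0.00506). SPI1, which encodes the related factor PU.1, stood at 21.7 and 21.3 FPKM in KD and at 25.4 and 24.5 FPKM in CON (log2 change -0.20, limma adjusted p = 0.00794).

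IRF8 had the largest rise of the tested members. This factor, which binds ETS-IRF elements with PU.1 or SPIB, stood at 26.6 and 26.4 FPKM in KD and at 17.1 and 17.1 FPKM in CON. The KD and CON pairs were tight and well apart. IRF8 (ENSG00000140968, chr16:85898803-85922609, plus strand) averaged 26.5 ± 0.142 FPKM in KD and 17.1 ± 0.0399 FPKM in CON (SD, n = 2 each), a 1.55-fold higher level. The log2 change was 0.60 (SE 0.0327, limma adjusted p = 0.000295).

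IRF4, whose high level drives plasma cell differentiation, stood at 0.188 and 0.180 FPKM in KD and at 0.0961 and 0.121 FPKM in CON. Both KD values exceeded both CON values, at a mean ratio of 1.69, but all 4 were below the 1 FPKM asked for in at least 2 libraries. Without that filter the log2 change of IRF4 (ENSG00000137265, chr6:391739-411447, plus strand) was 0.09 (limma adjusted p = 0.168), where 18.5% of 29489 genes were called. PRDM1 (ENSG00000057657, chr6:106086320-106109939, plus strand) stood at 0.0617 and 0.0474 FPKM in KD and at 0.0673 and 0.0412 FPKM in CON. The groups overlapped, and the log2 change without the filter was 0.00 (limma adjusted p = 0.995). Depth is unknown for FPKM, so at these levels a difference in PRDM1 was not detectable and its absence was not shown.

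Of the 10 members, 8 were tested: 3 were higher (IRF8, BCL6 and MEF2C), 2 lower (MEF2B and SPIB) and 3 were not called. The remaining 2, IRF4 and PRDM1, did not pass the filter. In all 8 tested members the libraries of the groups did not overlap, against 81.6% of all tested genes, and 62.5% of them were called, against 58.6%, so neither share stands out from the background. In the authors' deposited table, MEF2B alone among the 10 was marked significant, as were 2583 of 29489 genes in all. That mark asked for more than a q-value under 0.05, which 6 members had. The share of all genes under that q-value was not counted, so the 6 are not read as a result.

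**Figure D2:**
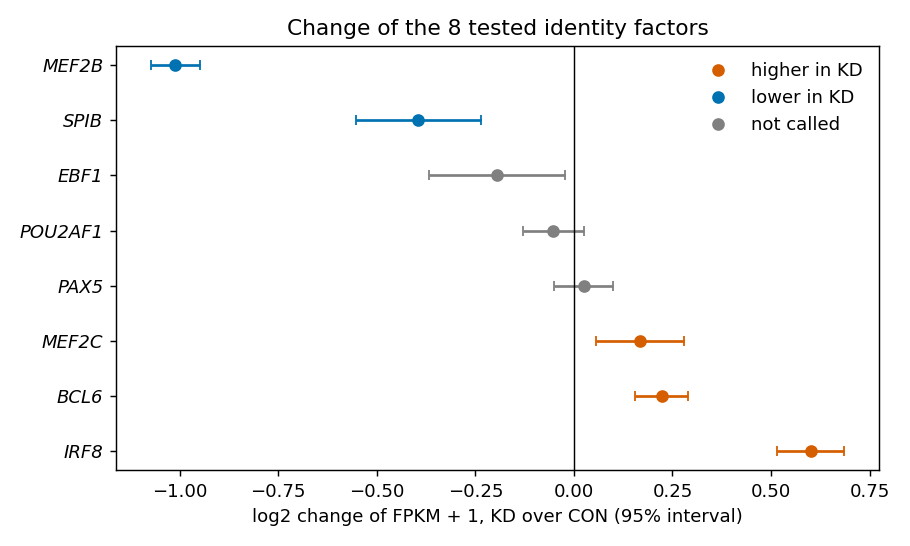
log2 change of FPKM + 1, KD over CON, of the 8 tested members (points) with 95% intervals (bars) from limma on 2 libraries per group. The changes run from -1.01 for MEF2B to 0.60 for IRF8, and the intervals of POU2AF1 and PAX5 include 0.

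By mean FPKM, the order in KD was MEF2B, BCL6, PAX5, POU2AF1, IRF8, SPIB, MEF2C, EBF1, IRF4 and PRDM1. The order in CON was the same except that SPIB stood above IRF8. In neither group did the 2 libraries of a member overlap those of its neighbour in the order. From EBF1 to IRF4 the mean level dropped 37.5-fold in KD and 73.9-fold in CON, the widest step in either group. Ratios within a library were computed for 3 further pairs as log2 of FPKM + 1. PAX5 over EBF1 differed by 0.22 (KD minus CON). BCL6 over its target PRDM1 also differed by 0.22, which repeats the change of BCL6 because PRDM1 is close to 0 beside the added 1. IRF4 over IRF8 differed by -0.51, or by -0.18 with 0.1 added in place of 1. The plain FPKM ratios of IRF4 to IRF8 were 0.00707 and 0.00682 in KD and 0.00561 and 0.00710 in CON, which overlap, so no direction is read for this pair. Each of the 4 ratios had an exact two-sided permutation p of 0.333, adjusted to 0.333.

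The relatives of IRF8 and IRF4 were examined as the IRF family, whose members bind interferon-responsive elements. Of 8 measured members, 5 were tested, 4 rose (IRF8 itself among them) and 0 fell. Of all tested genes, 27.6% were called higher and 31.1% lower. IRF7, the amplifier of interferon production, stood at 13.2 and 15.7 FPKM in KD and at 4.33 and 4.94 FPKM in CON (log2 change 1.45, limma adjusted p = 0.000519). IRF1 stood at 5.17 and 5.25 FPKM in KD and at 1.52 and 1.75 FPKM in CON (log2 change 1.24, limma adjusted p = 0.000403). These changes were larger in size than that of IRF8. IRF3 stood at 22.7 and 21.2 FPKM in KD and at 19.5 and 18.2 FPKM in CON (log2 change 0.21, limma adjusted p = 0.0266), a call lost without KD replicate 2 (adjusted p = 0.0950) and without CON replicate 3 (adjusted p = 0.111). IRF2, at 6.92 and 5.86 FPKM in KD and 6.98 and 6.77 FPKM in CON, was not called (log2 change -0.10, limma adjusted p = 0.366). Like IRF4, IRF5 and IRF9 did not pass the filter, at 0.325 and 0.285 FPKM in KD against 0.0487 and 0.130 FPKM in CON for IRF5, and at 0.455 and 0.776 FPKM in KD against 0.648 and 0.882 FPKM in CON for IRF9. The median log2 change of the 5 tested was 0.60, which is the value of IRF8 itself, against -0.02 over all tested genes.

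MEF2B differed in direction from its own family. MEF2A stood at 22.7 and 22.7 FPKM in KD and at 18.6 and 19.4 FPKM in CON (log2 change 0.24, limma adjusted p = 0.00517), and MEF2D at 16.3 and 15.2 FPKM in KD and 14.2 and 14.1 FPKM in CON (log2 change 0.15, limma adjusted p = 0.0473). The call of MEF2D was lost in 8 of 13 alternatives and that of MEF2C in 5, both without a change of direction. The class IIa deacetylases and CABIN1 bind MEF2 proteins and hold them inactive. HDAC9 stood at 2.04 and 1.77 FPKM in KD and 1.23 and 1.32 FPKM in CON (log2 change 0.35, limma adjusted p = 0.0303), while HDAC5 and CABIN1 changed by 0.16 each (limma adjusted p = 0.0196 and 0.0269). HDAC7 was not called (log2 change 0.08, limma adjusted p = 0.178), and HDAC4, at most 0.655 FPKM in KD and 0.946 FPKM in CON, did not pass the filter. Of 8 tested genes in this list, 6 rose and 1, MEF2B, fell, 87.5% called against 58.6% of all genes. The median log2 change was 0.16. The count of 6 was 2 without KD replicate 2, 3 without KD replicate 3 and 1 without CON replicate 2 or CON replicate 3. MEF2A was called under each of these omissions. MEF2B was called lower under all 13 alternatives.

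**Figure D3:**
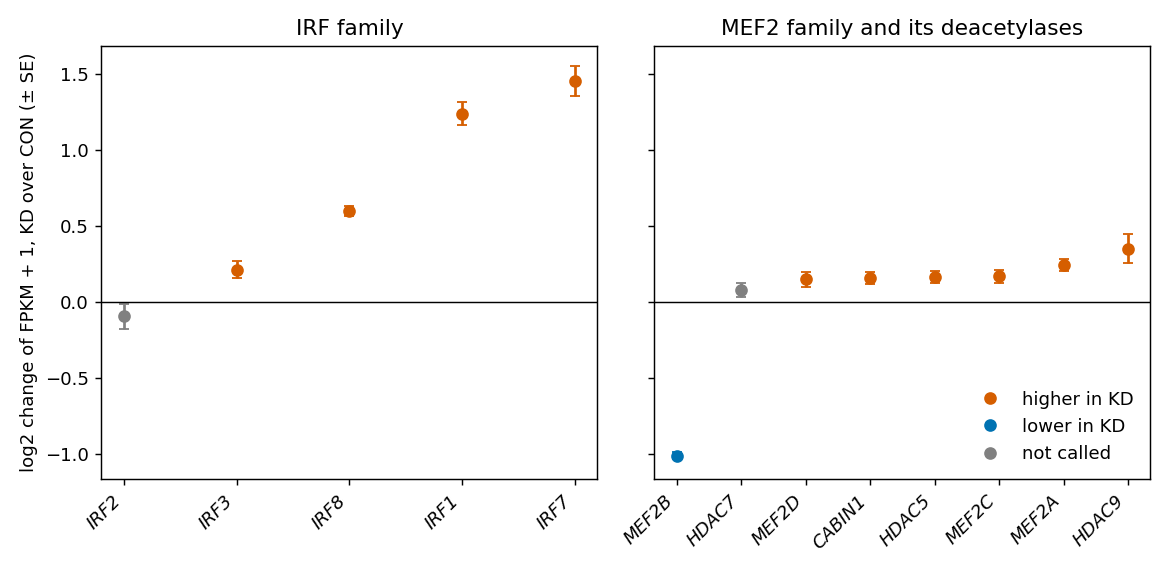
log2 change of FPKM + 1, KD over CON, of the tested IRF genes (left) and of the MEF2 genes with their deacetylases and CABIN1 (right); points are limma estimates from 2 libraries per group and bars are ± SE. In the left panel 4 of 5 genes, IRF8 included, rose, and in the right panel MEF2B alone fell, by 1.01.

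Other transcription factors of the B lineage moved in both directions. Of 29 tested, 12 rose and 8 fell, 69.0% called against 58.6% of all genes and 58.3% of the 836 tested genes with a transcription factor family, and the median log2 change was 0.12. Without CON replicate 2 or CON replicate 3, 5 fell. ETS1, the ETS factor that restrains plasma cell formation, stood at 36.7 and 36.7 FPKM in KD and at 68.6 and 69.9 FPKM in CON (log2 change -0.90, limma adjusted p = 7.11e-05). ID2 and ID3 encode proteins that bind E proteins and block their contact with DNA. ID2 stood at 31.9 and 31.2 FPKM in KD and 4.22 and 5.54 FPKM in CON (log2 change 2.48), and ID3 at 48.0 and 47.6 FPKM in KD and 23.5 and 25.3 FPKM in CON (log2 change 0.94), with limma adjusted p = 0.000191 and 0.000205. SOX4, a factor of early B lineage cells, also rose (log2 change 1.03, limma adjusted p = 0.000388).

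BCL6 represses through corepressors. Of 12 tested, 2 rose and 5 fell, 58.3% called against 58.6% of all genes, and the median of their log2 changes was -0.14. That median was -0.09 without KD replicate 3. TBL1X, a subunit of corepressor complexes, fell (log2 change -0.58, limma adjusted p = 0.00181). HDAC1 (log2 change 0.19, limma adjusted p = 0.00243) and TBL1XR1 (log2 change 0.34, limma adjusted p = 0.00250) rose. Of 20 genes listed as repressed by BCL6, 10 passed the filter, 1 of them (CD69) through KD alone. Of the other 9, 2 rose and 3 fell, 55.6% called against 58.6% of all genes. With CD69 counted, the median log2 change was 0.03 and ranged from -0.05 to 0.06 over the alternatives. ID2 rose. CD69, an activation antigen, stood at 2.81 and 3.07 FPKM in KD and 0.0700 and 0.101 FPKM in CON. MYC (log2 change -0.59, limma adjusted p = 0.000289) and BCL2, a survival factor (log2 change -0.27, limma adjusted p = 0.00226), fell. The chromatin genes often mutated in the same lymphomas as MEF2B gave 1 rise and 3 falls among 5 tested, 80.0% called against 58.6% of all genes. KMT2D, a histone methyltransferase, changed by -0.79 (limma adjusted p = 0.000298), ARID1A, a chromatin remodeller subunit, by -0.67 (limma adjusted p = 0.000382), and EZH2, the methyltransferase of the Polycomb complex, by 0.36 (limma adjusted p = 0.00127). CREBBP, an acetyltransferase, changed by -0.17 (limma adjusted p = 0.0246), a call lost without KD replicate 2 (adjusted p = 0.0825), CON replicate 2 (adjusted p = 0.108) or CON replicate 3 (adjusted p = 0.107).

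Genes that PAX5 or EBF1 activate fell more often than they rose. Over all tested genes, 27.6% were called higher and 31.1% lower. Of 16 tested, 3 rose and 9 fell, 75.0% called against 58.6% of all genes, and the median of their log2 changes was -0.21. CD79A, which encodes the signalling chain of the B cell receptor, stood at 200 and 206 FPKM in KD and at 373 and 377 FPKM in CON (log2 change -0.88, limma adjusted p = 4.36e-05). Its partner CD79B stood at 78.8 and 81.4 FPKM in KD and at 128 and 133 FPKM in CON (log2 change -0.70, limma adjusted p = 0.000199). FCRLA, an Fc receptor-like protein (log2 change -0.33, limma adjusted p = 0.000589), and IKZF3, the lymphoid factor Aiolos (log2 change -0.48, limma adjusted p = 0.000710), fell as well. The 3 rises were CIITA (log2 change 0.45), FOXO1 (0.41) and CD72 (0.21). PAX5 itself was not called, at a log2 change of 0.02, and its part in these changes was not tested. EBF1 was not called either, but was lower in KD (log2 change -0.20, 95% interval -0.37 to -0.02, limma adjusted p = 0.0555). Both factors are themselves among the 16 tested. Of the genes listed as repressed by PAX5, 2 were tested: NOTCH1 rose (log2 change 0.35, limma adjusted p = 0.00741) and JCHAIN, the joining chain of polymeric antibodies, fell (log2 change -0.64, limma adjusted p = 0.000112).

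The partners and targets of POU2AF1 and its OCT factors gave 2 rises and 3 falls among 8 tested, 62.5% called against 58.6% of all genes. The median of their log2 changes was -0.09, and -0.22 without CON replicate 3. POU2F2, which encodes OCT2, the OCT factor of B cells, stood at 9.89 and 8.92 FPKM in KD and at 17.1 and 17.0 FPKM in CON (log2 change -0.80, limma adjusted p = 0.000590). MS4A1, which encodes CD20, rose to 117 and 124 FPKM in KD, against 86.4 and 86.4 FPKM in CON (log2 change 0.47, limma adjusted p = 0.000627). CD79A and SPIB are members of this list too. The count of rises was 1 without KD replicate 2, KD replicate 3 or CON replicate 3. The octamer that OCT2 and POU2AF1 bind was found in MEF2B, shown above, and in a window of MEF2C at chr5:88824382-88824419 on the minus strand, given here to set beside it.
MEF2C octamer: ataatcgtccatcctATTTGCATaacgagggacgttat

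Genes that PRDM1 represses in plasma cells gave 5 rises and 3 falls among 11 tested, 72.7% called against 58.6% of all genes. The median of their log2 changes was 0.12, 0.07 without KD replicate 3 and 0.08 without CON replicate 2. The rises, which were 3 without CON replicate 3, included ID3 and BCL6 as well as CIITA, the activator of MHC class II genes (log2 change 0.45, limma adjusted p = 0.00690). MYC, SPIB and SPI1 were the falls. Of 14 tested plasma cell genes, 5 rose and 6 fell, 78.6% called against 58.6% of all genes. Their median of 0.09 ranged from -0.11 to 0.12 over the alternatives and was -0.08 without CON replicate 3. The rises were 3 without KD replicate 3 or CON replicate 3. JCHAIN and CD27, a TNF receptor of memory and plasma cells (log2 change -0.64, limma adjusted p = 0.000209), fell. EAF2, an elongation factor (log2 change 1.07, limma adjusted p = 0.00116), and PIM2, a survival kinase (log2 change 0.61, limma adjusted p = 0.000532), rose. XBP1, the factor of the secretory programme, was at most 0.140 FPKM in any library.

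Germinal centre genes were divided. Of 21 tested, 8 rose and 9 fell, 81.0% called against 58.6% of all genes, and the median of their log2 changes was 0.04, which ranged from -0.00469 to 0.0652 over the alternatives. SWAP70, a signalling protein of activated B cells, stood at 153 and 153 FPKM in KD and 104 and 106 FPKM in CON (log2 change 0.54, limma adjusted p = 0.000153). BCL7A, a chromatin remodeller subunit, changed by -0.97 (limma adjusted p = 0.000209), ELL3, an elongation factor, by -0.80 (limma adjusted p = 0.000527), and RGS13, a regulator of chemokine receptor signalling, by -0.54 (limma adjusted p = 0.000513).

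**Figure D4:**
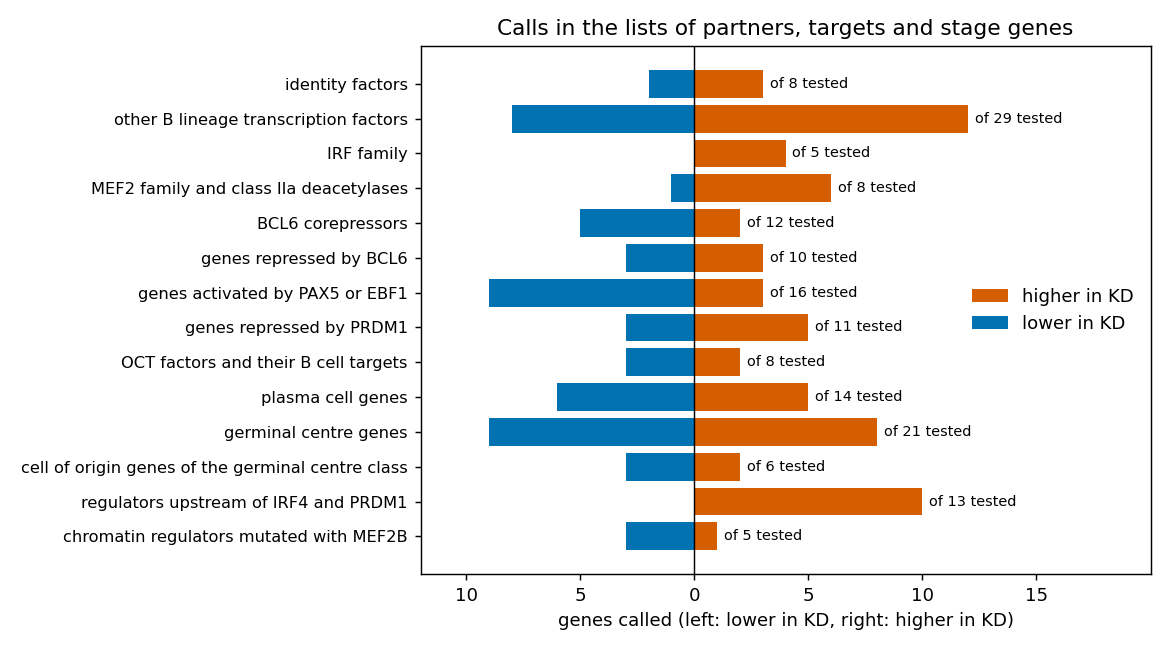
Number of genes called at a limma adjusted p under 0.05 among the members and in lists of partners, targets and stage genes. Bars run to the right when higher and to the left when lower in KD. The number tested stands beside each bar, and some genes are in several lists. Genes repressed by PAX5 (2 tested) and those of the activated B cell class (1 tested) are not drawn. Of the 3 rises in genes repressed by BCL6, 1 (CD69) passed the filter through KD alone. Genes activated by PAX5 or EBF1 had 3 rises and 9 falls of 16, and regulators upstream of IRF4 and PRDM1 had 10 rises, 2 of them in genes that passed the filter through KD alone, and 0 falls of 13.

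The genes by which diffuse large B-cell lymphomas are assigned to a class were measured as well. Of 7 germinal centre class genes, 6 were tested, 2 rose and 3 fell, 83.3% called against 58.6% of all genes. The rises were 1 without KD replicate 3, CON replicate 2 or CON replicate 3. MME, which encodes CD10, stood at 39.5 and 40.6 FPKM in KD and at 38.8 and 38.9 FPKM in CON (log2 change 0.04, limma adjusted p = 0.268). SERPINA9, a germinal centre serpin, stood at 9.94 and 9.59 FPKM in KD and at 15.6 and 14.6 FPKM in CON (log2 change -0.58, limma adjusted p = 0.000904), and S1PR2, the receptor that confines cells to the germinal centre, fell by 0.36 on the log2 scale (limma adjusted p = 0.00197). MYBL1, a MYB family factor, rose (log2 change 0.73, limma adjusted p = 0.000953). ASB13 changed by 0.26 (limma adjusted p = 0.0394), a call lost without KD replicate 3 (adjusted p = 0.132), CON replicate 2 (adjusted p = 0.159) or CON replicate 3 (adjusted p = 0.106). Of 8 activated B cell class genes, which include IRF4, 7 did not pass the filter and were at most 0.436 FPKM in any library. PIM2 was the exception, at 23.1 and 23.2 FPKM in KD and 14.4 and 15.3 FPKM in CON.

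**Figure D5:**
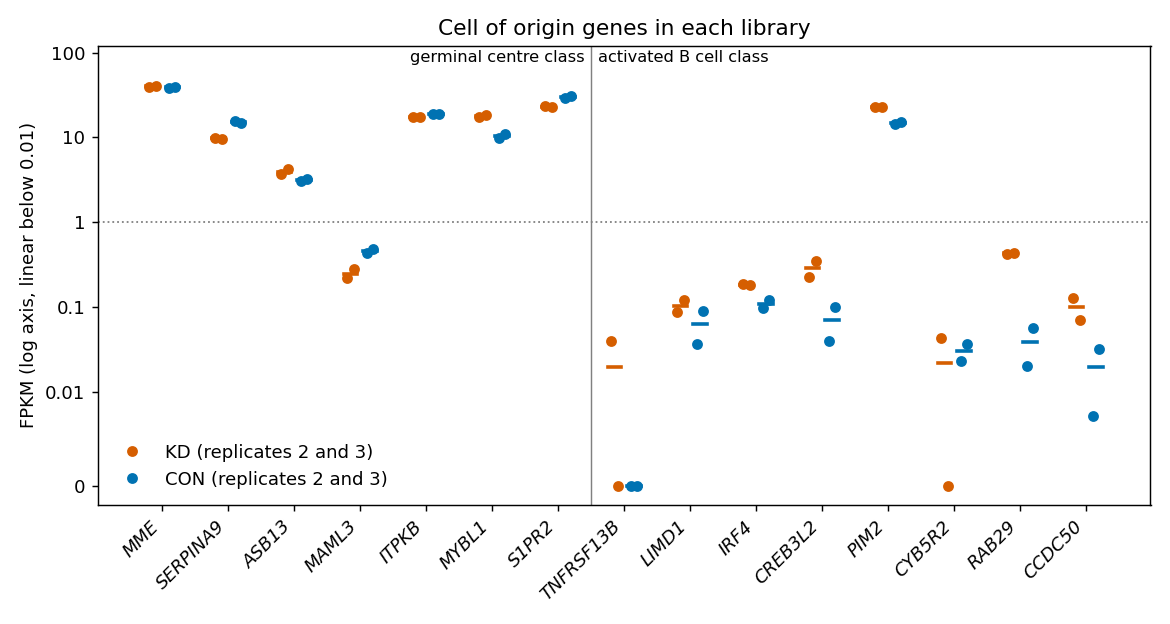
FPKM of genes that assign diffuse large B-cell lymphoma to the germinal centre class (left) and to the activated B cell class (right), on a log axis that is linear below 0.01, with a point per library, a bar at the group mean and a dotted line at 1 FPKM. Apart from MAML3, the germinal centre class genes lie above 1 FPKM in all 4 libraries; apart from PIM2, the activated B cell class genes lie below it.

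Of the regulators known to act upstream of IRF4 and PRDM1, 13 passed the filter, 2 of them (FOS and EGR1) through KD alone, so that these could only be higher. Of the other 11, 8 rose and 0 fell, 72.7% called against 58.6% of all genes, and the median of their log2 changes was 0.34. JUN, a subunit of the AP-1 factor that binds the PRDM1 gene, stood at 184 and 181 FPKM in KD and at 1.16 and 1.06 FPKM in CON (log2 change 6.44, limma adjusted p = 2.10e-06). JUNB stood at 157 and 155 FPKM in KD and 21.9 and 22.7 FPKM in CON (log2 change 2.75), and JUND at 334 and 344 FPKM in KD and 51.1 and 53.4 FPKM in CON (log2 change 2.67), with limma adjusted p = 6.38e-06 and 8.27e-06. EGR1, an early response factor, stood at 51.1 and 50.9 FPKM in KD and at 0.887 and 0.797 FPKM in CON (log2 change 4.82). PRDM1 and IRF4 stood below 1 FPKM in every library beside these changes. BATF, the AP-1 partner of IRF4, was also below the filter, at 0.472 and 0.533 FPKM in KD and 0.507 and 0.739 FPKM in CON. The NF-kB subunit REL, at 26.6 and 26.7 FPKM in KD and 21.3 and 21.7 FPKM in CON, changed by 0.30 (limma adjusted p = 0.00186).

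Letters of the AP-1 site (TGANTCA, in 7.72% of the 34943 windows) occurred in 3 members, in 3 of the 18 windows of members. BCL6 and PRDM1 have 2 windows each and MEF2C has 7, so these members had more windows to match than most. All 3 windows lie at starts inside the gene spans given above. The sites are shown with 15 bases on either side. The reason is that JUN had the largest change of the regulators listed, on the log2(FPKM + 1) scale. That scale understates the change of FOS, at 20.8 and 21.6 FPKM in KD and 0.0554 and 0.0121 FPKM in CON. The BCL6 site lies in its second window, at chr3:187736557-187736593 on the minus strand, and begins at -77. The MEF2C sites, both in 1 window, lie at chr5:88785554-88785590 and chr5:88785527-88785563 on the minus strand and begin at -64 and -37. The PRDM1 site lies in its second window, at chr6:106098884-106098920 on the plus strand, and begins at -42.
BCL6 AP-1: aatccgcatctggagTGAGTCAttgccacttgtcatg
MEF2C AP-1 upstream: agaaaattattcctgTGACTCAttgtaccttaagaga
MEF2C AP-1 downstream: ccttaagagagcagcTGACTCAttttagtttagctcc
PRDM1 AP-1: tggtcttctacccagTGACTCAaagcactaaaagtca
The 3 genes with these letters differed in what was measured: BCL6 and MEF2C were called higher, by 0.22 and 0.17 on the log2 scale, and PRDM1 was below the filter. The 8 motifs searched also included the MEF2 core (in 2.74% of windows), the EBF site (in 1.21%) and the IRF element (in 3.57%), none of which had a match in the 18 windows of 9 members. Heat shock pairs were also found in MEF2C and PRDM1. The windows of PAX5, SPIB, IRF4 and IRF8 held none of the 8 motifs, which says only that these letters were not in those 300 bases. Both IRF8 windows lie inside the gene span given above, so the bases around its outermost start were not searched.

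Several members overlap other genes, and since the strand setting of the counting is not given, their reads cannot be fully told apart. Inside IRF8, on the same strand, MIR6774 stood at 5.16 and 5.57 FPKM in KD and at 2.73 and 3.24 FPKM in CON (log2 change 0.68, limma adjusted p = 0.00296), higher in the same libraries as its host. ENSG00000228804, antisense to BCL6, was at 0.00988 and 0.0977 FPKM in KD and at 0.551 and 0.607 FPKM in CON. ENSG00000285938, antisense over the BCL6 start, was at 0.568 and 0.603 FPKM in KD and at 0.903 and 1.03 FPKM in CON. Both lay lower in KD, where BCL6 was higher, but did not pass the filter and were not tested. ENSG00000258885, antisense to PAX5, was at 0.595 and 0.869 FPKM in KD and listed at 0 in both CON libraries. MEF2C-AS1 was at 0.0839 and 0.163 FPKM in KD and 0.254 and 0.333 FPKM in CON, and MEF2C-AS2 at 0.182 and 0.136 FPKM in KD and 0.00250 and 0.0457 FPKM in CON. ATG5, which spans PRDM1 on the opposite strand, stood at 5.64 and 5.47 FPKM in KD and 5.84 and 6.01 FPKM in CON (log2 change -0.08, limma adjusted p = 0.246).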

How the data were processed

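Poly(A) RNA of SU-DHL-4 was sequenced from libraries whose second cDNA strand carried dUTP, per the labels' protocols. Tools named in the submitters' processing notes are edgeR, StringTie, HISAT2 and fastp, with GRCh38 as the build. For the annotation release and strand setting, nothing was given in the sources used here. Per the file headers, the authors deposited FPKM for each gene and sample. Beside these they deposited a linear fold change (read here as a score, since it is signed in 1 row), the log2 of that fold change, a q-value and a p-value for KD against CON.

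FPKM are not counts. Whole reads could not be recovered, since no more than 40 of 4343 low genes with a single transcript had the same ratio between any 2 libraries. Depth is therefore unknown. Replicates 2 and 3 of each group were used. A gene was tested if 2 or more of the 4 libraries held 1 FPKM or above, which left 11916 of 29489. Values were analysed as log2(FPKM + 1) with limma 3.58.1 (R 4.3.3), a mean-variance trend and group as the only term, two-sided, with Benjamini-Hochberg adjustment at 0.05 over all tested genes. Residual degrees of freedom were 2 and prior ones 2.85. The fit was also run on simulated data, the outcome of which is not reported here. A log2 change on this scale understates that of low genes. Ratios between members were compared with exact permutation tests (scipy 1.17.1).

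The members and gene lists were chosen with earlier results of these data known. Named genes were all members, all measured IRF and MEF2 list genes, up to 4 called genes with the smallest adjusted p of each other list, genes that overlap a member, and ZHX2. CD3E, SPI1, CIITA, FOXO1, CD72, XBP1, MAML3, MME, FOS, BATF and REL were named after their values were seen. Some genes the rule names are not reported here. Coordinates are from GENCODE release 29 by gene ID, and 9 of 10 members had a RefSeq promoter window.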

Additional observations from a re-analysis of the deposited data

How the results depend on the processing

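Results were recomputed under up to 13 alternatives: the ratios between members under 2 other pseudocounts, IRF4 and PRDM1 without the filter only, and genes under 5 FPKM under 12. Over all genes, the calls ranged from 2292 to 3543 higher and from 2493 to 3788 lower, and leaving out 1 library gave 2357 to 2709 higher and 2630 to 3243 lower. Scaling by median ratios gave 3543 higher and 3427 lower. With no filter on low values, 2612 of 29489 genes were higher and 2847 lower. Members called higher numbered 1 with all 6 columns, where replicate 1 repeats the others, and 2 to 3 when 1 library was left out; members called lower numbered 2 to 3. With all 6 columns PAX5 changed by -0.0163 on the log2 scale (limma adjusted p = 0.917), the opposite sign to the value above, and BCL6 lost its call (limma adjusted p = 0.182). MEF2B (limma adjusted p at most 0.00227), SPIB (at most 0.0346) and IRF8 (at most 0.00341) kept direction and call in all 13 alternatives. Without the low-value filter IRF4 and PRDM1 were not called. Of 63 tested genes named by rule from the members and lists, 47 kept their call in every alternative that tested them (12 or 13). The other 16 lost or gained it in at least 1. Genes that overlap a member, ZHX2 and the genes named after their values were seen are not in this count.

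The replicate numbers gave only 2 pairs, and over 11916 genes the deviations of same-numbered libraries correlated at 0.00473, so the numbers were not taken to pair the samples. With the replicate block, 3068 genes were higher and 3514 lower. Under the block MEF2C was not called (limma adjusted p = 0.0501) and EBF1 (limma adjusted p = 0.0478) and BORCS8-MEF2B (limma adjusted p = 0.0367) were. Such a fit leaves fewer degrees of freedom. Depth is unknown, and 2 libraries per group, perhaps technical repeats, limit every test.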
